A study of Mus musculus with 24 samples.

Results

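Regional differences between colon and small intestine (SI) were measured in Atoh1-lineage cells of mice with the wild-type Atoh1 sequence. The comparison took every library of 2 groups by label, WT_Atoh1_C (6 libraries) and WT_Atoh1_SI (6 libraries), so it used 12 of the 24 libraries of the series. The mice were Atoh1(WT)CreERT2 R26RtdTom animals. A tamoxifen-inducible Cre stood downstream of Atoh1 at its own locus, and a tdTomato reporter was at Rosa26. Every mouse had received 3 mg tamoxifen once, by injection into the abdomen, and live EpCAM+ tdTom+ cells were sorted the day after. Per the methods of the study, the mice were adult C57BL/6 animals homozygous at Atoh1, the proximal part of the SI was taken, and the first, villus-rich fraction of the tissue was discarded. In each group 3 libraries were labelled female and 3 male, and the titles number them 2 to 7. The other 12 libraries came from mice with the Atoh1(9S/T-A)CreERT2 allele, in which phosphorylation sites of ATOH1 were changed to alanine, and served as a repeat of the tissue contrast.

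ATOH1 is the transcription factor that commits intestinal progenitors to the secretory fate, and cells that escape Notch signalling keep it on. Its descendants are goblet cells, which secrete mucus, Paneth cells, which secrete antimicrobial peptides at the base of SI crypts, and enteroendocrine cells, which secrete hormones. Paneth cells are absent from the normal mouse colon, where a secretory cell that expresses Reg4 and Kit lies at the crypt base. GATA4 is known as a regulator of proximal SI genes, while the 5′ Hox genes mark the hindgut. Reporter-positive cells the day after tamoxifen include cells that had just switched Atoh1 on, so the sort is a mixture of secretory cells and their precursors.

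Total counts ran from 35967875 to 57792469 per SI library and from 44744217 to 54733026 per colon library. The 20 genes with the most counts took 37.2% to 43.7% of the counts in the SI and 12.3% to 16.2% in the colon. Levels are given as counts per 1000000 of the TMM-scaled library size (CPM), as mean ± SD over 6 libraries, and where 3 values are given for a tissue they are its lowest, median and highest library. Errors of log2 fold changes are SE. Against plain library totals, this scaling lowered the log2 fold change of colon over SI by a median of 0.71, and every fold below is relative to that shift. In a principal component analysis, the first component held 87.3% of the variance and separated the tissues. The second held 4.79% and set the SI and the colon library numbered 7 apart from the other 10. The values of these libraries are given with the genes they move. As a check of stray counts, the mean level of Y-linked genes in females was 0.180% (Eif2s3y), 0.226% (Ddx3y) and 1.23% (Uty) of that in males, and the X-linked Xist in males was at 0.120% of its female level. A level below 1.23% of the other tissue was therefore not read as expression, and the folds of such genes are given as measured. SI and colon libraries of the same number had the same sex label, so this check could not show stray counts between them.

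Epcam, the epithelial adhesion molecule used for the sort, had 1074 ± 38.6 CPM in the SI and 1040.2 ± 108 CPM in the colon. Atoh1 (ENSMUSG00000073043, chromosome 6, 64729146 to 64731233, GRCm38) had 95.6 ± 16.0 CPM in the SI and 104 ± 15.6 CPM in the colon. Its log2 fold change was 0.12 ± 0.12 (edgeR quasi-likelihood test, adjusted p = 0.379), and the libraries of both tissues overlapped. Without the SI library numbered 2 the log2 value of Atoh1 was 0.25 and passed, and with plain library totals it was 0.84 and passed. Of 9 pan-epithelial markers, Epcam among them, 8 were called higher in SI, against 30.4% of all genes. Of these 3 passed beyond 2-fold (1 with plain library totals), against 8.94% of all genes. The median log2 value of the 9 was -0.48, or 0.23 with plain library totals. The 9 summed to 12044 to 14811 CPM in the SI and 6438 to 8056 CPM in the colon. Spdef, a factor of goblet and Paneth cell maturation, had 349.7 ± 34.9 CPM in the SI and 337 ± 23.6 CPM in the colon, with a log2 fold change of -0.06 ± 0.08 that became 0.66 with plain library totals. Markers of the other cells that the sort could hold differed in amount. The 15 enterocyte markers summed to 5113 to 9754 CPM in the SI and 597 to 750.2 CPM in the colon. Apart from Lyz2, whose counts may include reads of the closely related Lyz1, the leukocyte markers summed to 63.5 to 131 CPM in the SI and 6.69 to 9.45 CPM in the colon. The stromal, vessel and muscle markers summed to 13.2 to 26.5 CPM in the SI and 15.3 to 22.0 CPM in the colon, with Col3a1, Lum and Cdh5 at 0 in every library of both tissues. Red blood cell markers summed to at most 1.32 CPM. Beyond 2-fold in the SI, 3 of 6 gastric, 3 of 6 pancreatic acinar and 1 of 1 squamous markers tested passed. The share of all genes was 8.94%. Zg16, a goblet cell product described below, was 1 of the 3 acinar markers. In the colon 2 acinar markers passed, against 7.65% of all genes. The squamous count was 0 without the SI library numbered 7 and with DESeq2, limma or plain library totals. Of the 9 squamous markers listed, 8 had too few counts to be tested. With no filter on low counts, 2 squamous markers passed in colon. Of the 2 nerve and glia markers tested none passed in either tissue, but 1 did in SI without the SI library numbered 2 or 5, without the colon library numbered 3 or 6 and with the replicate block, and 1 did in colon with plain library totals. In such sorted pools, fewer cells of a type and less RNA per cell cannot be told apart.

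Of 16979 genes tested, 10794 (63.6%) were called different between colon and SI at an adjusted p under 0.05 (edgeR quasi-likelihood test, Benjamini-Hochberg), 33.1% higher in colon and 30.4% higher in SI. Because most genes differed, members of gene programmes were counted by a stricter test, against a difference of 2-fold (edgeR glmTreat, adjusted p under 0.05). By that test 1299 genes (7.65%) were higher in colon and 1518 (8.94%) higher in SI, so 46.1% of these calls were higher in colon. With plain library totals, 4050 genes passed in colon and 958 in SI (80.9% higher in colon), and none of the 2817 genes turned direction. The 6 libraries of colon lay wholly above those of SI for 1286 of the 1299 genes, and the reverse held for 1466 of the 1518. These genes were picked by their difference in the same libraries, so this separation is a description and not separate support for the calls. The median absolute log2 fold change was 2.54 among the genes higher in colon and 2.59 among those higher in SI. Differences beyond 32-fold as estimated were seen for 244 genes in colon and 308 in SI. The median over all genes tested was 0.03.

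**Figure D1:**
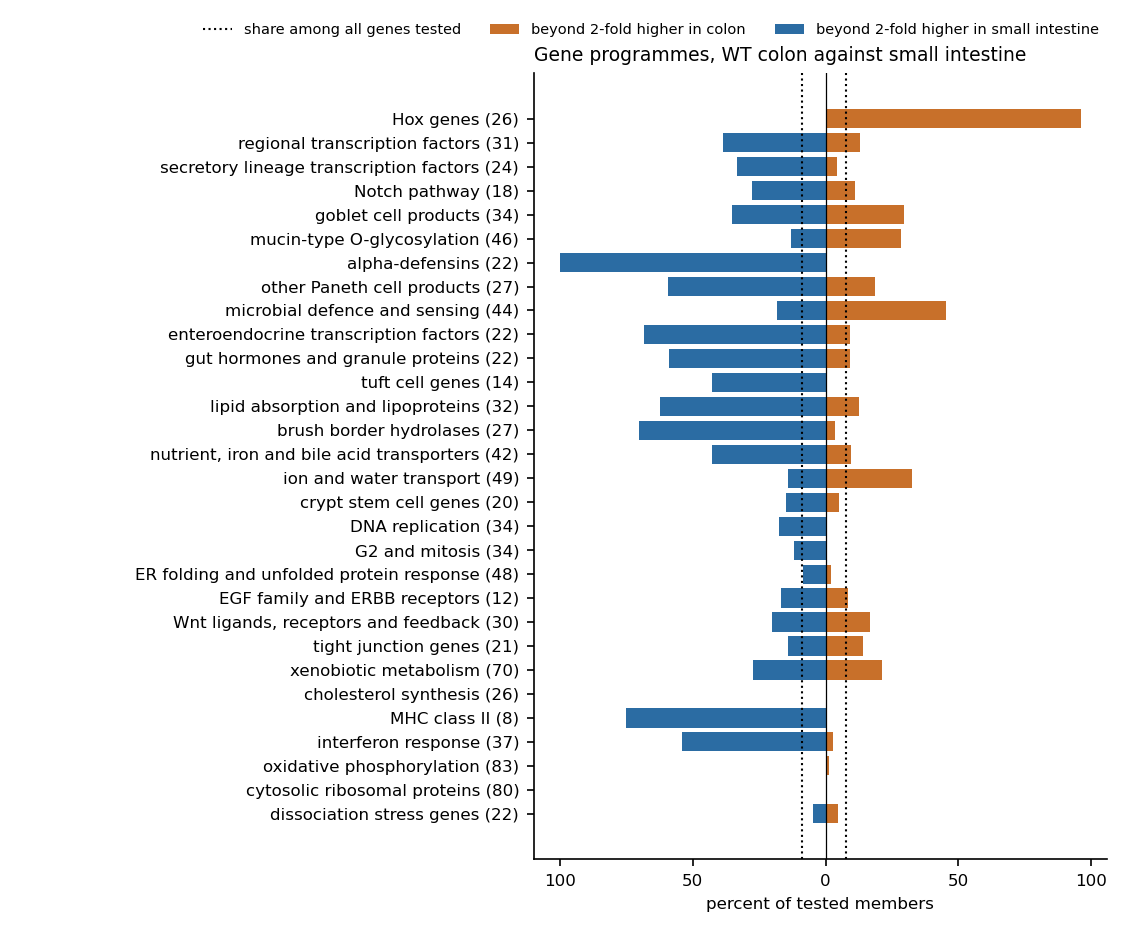
Share of tested members of each gene programme that passed the test beyond 2-fold between WT colon and WT SI (percent, x axis), to the right for higher in colon and to the left for higher in SI, with dotted lines at the shares over all genes tested (7.65% and 8.94%). Of the Hox genes tested 25 of 26 lie to the right, and 22 of 22 alpha-defensins lie to the left.

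Hox genes were higher in colon. These homeodomain factors lie in 4 clusters and set position along the body axis. Of 39 Hox genes, 26 passed the filter on low counts, mostly through the colon libraries, and 25 of these were higher in colon beyond 2-fold, against 7.65% of all genes. The members of the cluster on chromosome 15 (HoxC) did not pass the filter. Among the members tested the median log2 fold change was 6.53 (6.41 when 3 genes without a read in the SI are placed at the lowest fold their counts allow).

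Hoxb13 (ENSMUSG00000049604, chromosome 11, 96194316 to 96197447), the last gene of the HoxB cluster and a marker of the distal hindgut, had 109 CPM per kb of exon in colon, above the other Hox genes on that scale. Its libraries had 195, 248 and 284 CPM in the colon against 0.35, 0.537 and 0.569 CPM in the SI, a 481-fold difference as measured (log2 8.91 ± 0.14, adjusted p = 2.19e-15). Hoxb9 followed with 60.7, 63.1 and 80.0 CPM in the colon against 0, 0.157 and 0.267 CPM in the SI, and no library of one tissue overlapped the other. Hoxb8 had 0.0249 ± 0.0385 CPM in the SI and 14.3 ± 4.1 CPM in the colon, and its highest SI library was the one numbered 7 with 0.0993 CPM. Hoxd13, the last gene of the HoxD cluster, had 0.0336 ± 0.0119 CPM in the SI and 16.3 ± 5.11 CPM in the colon. Hoxd12, Hoxd10 and Hoxd9 had 0 reads in the 6 SI libraries together and 688, 465 and 91 reads in the colon, which placed them at least 140-fold, 94.0-fold and 18.6-fold higher in colon (lower bounds at 3 counts over the SI group). Hoxb2 was the exception among the genes tested. It had 0.581 ± 0.187 CPM in the SI and 1.11 ± 0.529 CPM in the colon, and its log2 fold change of 0.92 ± 0.31 passed the test of any difference (adjusted p = 0.0181) but not that beyond 2-fold. Without the colon library numbered 6 the log2 value for Hoxb2 was 0.67 and the call was lost.

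**Figure D2:**
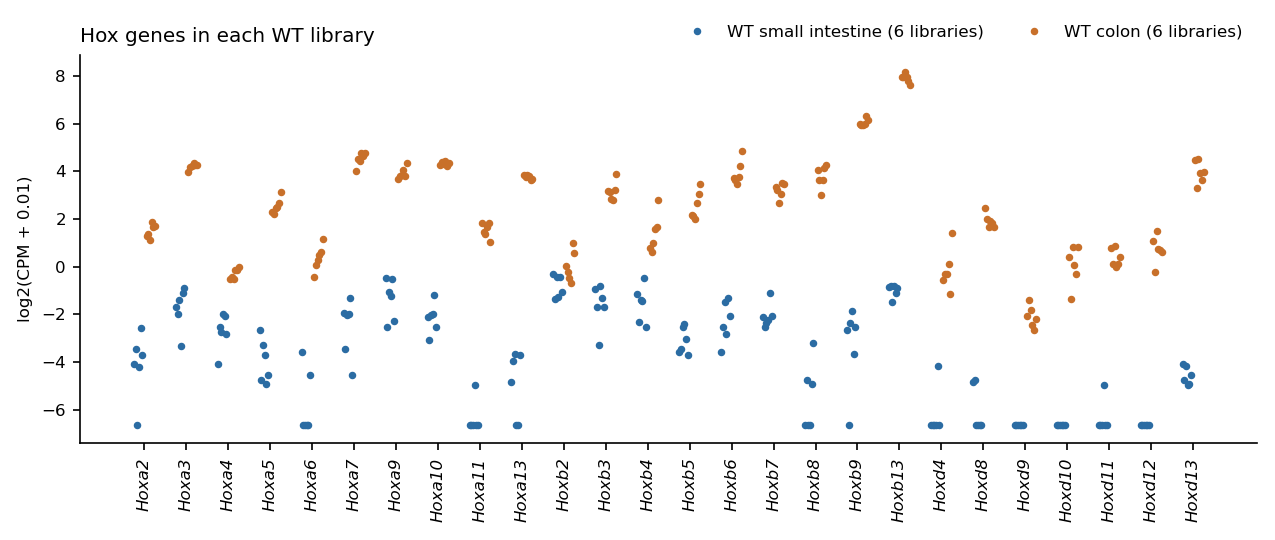
Level of each tested Hox gene in the 6 WT SI and 6 WT colon libraries (log2 of CPM + 0.01, y axis), with 1 point per library and genes in the order of their clusters. Colon points lie above SI points for all genes shown but Hoxb2, whose libraries overlap.

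Beyond the Hox clusters, regional transcription factors fell on both sides. Of 31 tested, 4 were higher in colon beyond 2-fold (7.65% of all genes) and 12 in SI (8.94%). With plain library totals 7 passed in colon, and the median log2 value of -0.75 was -0.04 with plain library totals. Foxd2, a forkhead factor, had 0.162 ± 0.076 CPM in the SI and 46.5 ± 5.79 CPM in the colon, without overlap of the tissues and with the SI library numbered 5 highest of its group at 0.311 CPM. Nr5a2, a nuclear receptor of crypt cells, was 3.24-fold higher in colon, and Foxa1, a pioneer factor of endoderm, was 2.25-fold higher.

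Gata4 (ENSMUSG00000021944, chromosome 14, 63198922 to 63271692) stood at the other pole. Its libraries had 98.2, 114 and 118 CPM in the SI against 0.199, 0.276 and 0.595 CPM in the colon, a log2 fold change of -8.37 ± 0.19 and 0.3% of the SI level in colon. Onecut2, a homeobox factor, had 87.4 ± 12.9 CPM in the SI and 0.113 ± 0.0992 CPM in the colon. Creb3l3, a membrane-bound factor of liver and SI lipid metabolism, had 57.3 ± 19.8 CPM in the SI and 0.205 ± 0.0791 CPM in the colon, and Maf had 18.5 ± 6.39 CPM in the SI and 0.205 ± 0.0775 CPM in the colon. The colon levels of Creb3l3 and Onecut2 were 0.357% and 0.129% of those in SI, and that of Gata4 was likewise within the range of the sex-linked genes. The general intestinal factors Cdx2 and Hnf4a did not pass the test beyond 2-fold. Only with plain library totals was Cdx2 called, as higher in colon (log2 0.84). Cdx2, the master factor of intestinal identity, had 98.7, 115 and 119 CPM in the SI against 105, 125 and 139 CPM in the colon (log2 0.13 ± 0.08, adjusted p = 0.184), with overlapping libraries. Hnf4a had 670.3 ± 52.9 CPM in the SI and 332 ± 27.9 CPM in the colon, a log2 fold change of -1.01 ± 0.09 that was called but did not pass the test beyond 2-fold.

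The promoters of 4 genes are shown because the factors above are known to bind such sites, namely GATA factors AGATAA, HNF4 CAAAGTNCA, and CDX and posterior HOX proteins TTTATNG. Each is the RefSeq sequence (GRCm38.p6) from 250 bases before to 50 bases after the start of the gene, in the direction of transcription, with capitals on the letters of the motif. Positions are counted from the RefSeq start, which for Apoa4 lies inside the gene as GENCODE annotates it, with the motif before both starts. Lct, the gene of lactase, lies on the minus strand at chr1:128328269-128328568. Muc2 lies on the plus strand at chr7:141690090-141690389, Apoa4 on the plus strand at chr9:46240594-46240893 and Hoxb8 on the plus strand at chr11:96281655-96281954.
Lct: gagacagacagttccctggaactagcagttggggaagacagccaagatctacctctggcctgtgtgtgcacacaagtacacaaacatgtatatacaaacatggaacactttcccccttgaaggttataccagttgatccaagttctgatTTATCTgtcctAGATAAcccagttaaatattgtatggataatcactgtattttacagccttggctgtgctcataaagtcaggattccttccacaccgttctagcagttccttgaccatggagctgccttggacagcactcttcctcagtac
Muc2: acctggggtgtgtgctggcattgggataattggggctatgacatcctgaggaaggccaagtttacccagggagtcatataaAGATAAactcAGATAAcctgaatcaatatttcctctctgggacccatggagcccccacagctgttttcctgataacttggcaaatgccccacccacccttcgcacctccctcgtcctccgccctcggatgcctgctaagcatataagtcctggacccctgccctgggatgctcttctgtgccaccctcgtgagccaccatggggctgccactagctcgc
Apoa4: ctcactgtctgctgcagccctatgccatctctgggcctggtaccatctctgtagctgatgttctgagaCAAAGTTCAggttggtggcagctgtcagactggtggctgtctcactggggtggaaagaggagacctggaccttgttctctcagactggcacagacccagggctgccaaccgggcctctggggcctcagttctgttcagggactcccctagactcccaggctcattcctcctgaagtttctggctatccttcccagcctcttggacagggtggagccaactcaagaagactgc
Hoxb8: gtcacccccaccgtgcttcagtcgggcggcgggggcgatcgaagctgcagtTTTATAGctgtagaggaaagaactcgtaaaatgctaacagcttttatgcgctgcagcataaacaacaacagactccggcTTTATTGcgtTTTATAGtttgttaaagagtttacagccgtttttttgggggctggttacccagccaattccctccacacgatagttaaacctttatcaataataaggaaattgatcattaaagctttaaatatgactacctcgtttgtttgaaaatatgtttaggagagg
In Lct the AGATAA run lies 90 bases before the start, with TTATCT, the same motif on the other strand, 101 bases before it. Muc2 held AGATAA 169 and 159 bases before the start, Apoa4 held CAAAGTTCA 182 bases before, and Hoxb8 held TTTATAG at 199 and 110 bases and TTTATTG at 120 bases before. Both strands were searched, and TTTATNG overlaps the reverse of the TATAAA box. Over the promoters of genes tested, 6.89% held AGATAA, 1.21% CAAAGTNCA and 7.14% TTTATNG. Among promoters of genes higher in colon beyond 2-fold the shares were 7.97%, 0.913% and 8.46%, and among those higher in SI 9.39%, 2.81% and 9.46%. Over all 32851 promoters of the table they were 11.2%, 1.41% and 10.9%. A run of letters is not evidence of binding. The table named 10968 of the 16979 genes tested.

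Of 24 transcription factors of the secretory lineage, 1 was higher in colon beyond 2-fold and 8 in SI, against 7.65% and 8.94% of all genes. With plain library totals the counts were 5 and 5, and the median log2 value of -0.72 was -0.0018 with plain library totals. Creb3l1, an ER-bound factor that governs secretory capacity, had 248 ± 8.57 CPM in the SI and 613 ± 82.5 CPM in the colon, a 2.47-fold difference, and was the factor higher in colon. Xbp1, which drives ER expansion, had 493 ± 23.1 CPM in the SI and 377 ± 21.2 CPM in the colon, and its log2 fold change of -0.39 ± 0.07 turned to 0.32 with plain library totals. Neurog3, the factor that starts endocrine differentiation, had 11.4, 26.4 and 46.4 CPM in the SI against 1.47, 2.99 and 4.28 CPM in the colon, so all SI libraries lay above all colon libraries. Insm1, an endocrine factor downstream of it, had 14.8 ± 6.81 CPM in the SI and 2.92 ± 0.699 CPM in the colon. Pou2f3, the master factor of tuft cells, had 8.55 ± 2.47 CPM in the SI and 1.7 ± 0.453 CPM in the colon. Id3, an inhibitor of the basic helix-loop-helix class to which ATOH1 belongs, was 6.28-fold higher in SI, with 197 ± 31.7 CPM in the SI and 31.3 ± 3.09 CPM in the colon.

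The Delta-like ligands Dll1 and Dll4, which cells of the secretory lineage present to Notch receptors of their neighbours, were higher in SI. Dll1 had 119, 145 and 172 CPM in the SI against 37.5, 47.6 and 61.7 CPM in the colon, a log2 fold change of -1.57 ± 0.12. Dll4 had 127 ± 14.2 CPM in the SI and 49.2 ± 6.01 CPM in the colon, a log2 fold change of -1.36 ± 0.09. With plain library totals the log2 values were -0.86 and -0.65. In contrast Hes1, the target that represses Atoh1 in cells that receive the signal, had 42.5 ± 4.61 CPM in the SI and 44.3 ± 3.53 CPM in the colon, with overlapping libraries (log2 0.06 ± 0.08, adjusted p = 0.539). Hes1 was called higher in colon with plain library totals (log2 0.78). Notch4, a receptor best known in vessels, was 2.63-fold higher in colon. Dlk1, a non-canonical ligand, had 0.025 ± 0.0331 CPM in the SI and 3.03 ± 1.52 CPM in the colon, with its highest value of 5.78 CPM in the colon library numbered 4. Of 18 pathway genes, 2 passed beyond 2-fold in colon and 5 in SI, against 7.65% and 8.94% of all genes. With plain library totals 2 passed in SI, and the median of -0.40 became 0.32.

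Products of goblet cells took 28.2%, 29.1% and 33.6% of all counts in the lowest, median and highest SI library, against 6.68%, 7.86% and 8.79% in the colon. Of 34 products 10 were higher in colon and 12 in SI beyond 2-fold, against 7.65% and 8.94% of all genes. The median of -0.22 became 0.49 with plain library totals. The products with the most counts in the SI were higher there. Fcgbp, a binding partner of mucin, had 156237 ± 34726 CPM in the SI and 10065 ± 3412 CPM in the colon, a log2 fold change of -3.96 ± 0.27. Zg16, a lectin that binds Gram-positive bacteria, had 90286, 102874 and 127870.5 CPM in the SI against 4531, 6076 and 7526 CPM in the colon, and Tff3, the trefoil peptide, had 38390.3 ± 4567 CPM in the SI and 2363 ± 437 CPM in the colon. Per kb of exon, the unit in which genes can be compared, Zg16 stood at 168963 CPM in the SI and Tff3 at 77871 CPM. Muc2, the gel-forming mucin (ENSMUSG00000025515, chromosome 7, 141690340 to 141754693), differed less, with 24046, 27310.1 and 34800.4 CPM in the SI against 10502, 11993 and 15074 CPM in the colon. Its log2 fold change of -1.22 ± 0.15 was called (adjusted p = 4.06e-06) but did not pass the test beyond 2-fold. Agr2, the disulfide isomerase that folds MUC2, had 3489 ± 459 CPM in the SI and 3774 ± 528 CPM in the colon. Its libraries overlapped (edgeR quasi-likelihood test, adjusted p = 0.442), and it was called higher in colon with plain library totals (log2 0.82).

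Several other goblet cell products differed by far more. Itln1, a lectin of SI goblet and Paneth cells, had 7038, 12090.4 and 12643 CPM in the SI against 10.98, 14.8 and 40.9 CPM in the colon. Ido1, which degrades tryptophan, had 842 ± 319 CPM in the SI and 2.13 ± 0.926 CPM in the colon, with the colon library numbered 7 highest of its group at 3.98 CPM. Clca4b had 88.4 ± 17.6 CPM in the SI and 0.894 ± 0.364 CPM in the colon. On the colon side, Best2, a bicarbonate channel of colonic goblet cells, had 177, 232 and 295 CPM in the colon against 0.296, 0.402 and 0.793 CPM in the SI, a log2 fold change of 8.95 ± 0.21. Sval1, a secreted protein, had 4.87 ± 0.467 CPM in the SI and 1197 ± 288 CPM in the colon. Nxpe4 had 0.029 ± 0.0366 CPM in the SI and 14.1 ± 3.27 CPM in the colon, and Muc1, a membrane mucin, had 0.29 ± 0.135 CPM in the SI and 24.7 ± 5.45 CPM in the colon. Retnlb, a bactericidal product of colonic goblet cells, was the least even. It ran from 32.1 to 430.3 CPM over colon libraries and stayed at 5.13 CPM or below in the SI, where the library numbered 7 was highest. Klk1, a kallikrein, was 4.63-fold higher in colon and Capn9, a calpain, 3.53-fold higher in SI. Of 16 goblet markers 3 were higher in colon and 5 in SI beyond 2-fold, against 7.65% and 8.94% of all genes. The SI count was 3 with plain library totals. In the main fit 8 of the 16 passed in neither direction.

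Enzymes that build the sugar chains of mucins also divided, with more in colon. Of 46, 13 were higher in colon and 6 in SI beyond 2-fold (3 in SI with plain library totals), against 7.65% and 8.94% of all genes. St6galnac6, a sialyltransferase, had 848, 1145 and 1292 CPM in the colon against 1.98, 2.26 and 3.44 CPM in the SI, a 438-fold difference. St6gal1, which adds sialic acid to N-linked chains, had 2.86 ± 0.386 CPM in the SI and 451 ± 93.8 CPM in the colon. Abo, the blood group transferase, had 0.0799 ± 0.0875 CPM in the SI and 23.1 ± 4.03 CPM in the colon. In the SI, Gcnt2, which branches the I antigen, had 19.6 ± 4.89 CPM in the SI and 0.547 ± 0.27 CPM in the colon, and Gcnt4, a core 2 enzyme, was 9.16-fold higher. St3gal1 was 5.25-fold higher in SI, and its highest colon value of 13.4 CPM was in the library numbered 6. Galnt10 and Gcnt3 were the most counted members that did not pass beyond 2-fold. Galnt10, which adds the first sugar, had 429 ± 26.1 CPM in the SI and 506 ± 66.7 CPM in the colon (adjusted p = 0.0393), a call that was lost without the colon library numbered 2, 3, 4 or 5 (log2 0.20 to 0.23). Gcnt3 had 606 ± 66.0 CPM in the SI and 369 ± 48.5 CPM in the colon, a log2 fold change of -0.72 ± 0.10 that was 0.0015 with plain library totals.

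**Figure D3:**
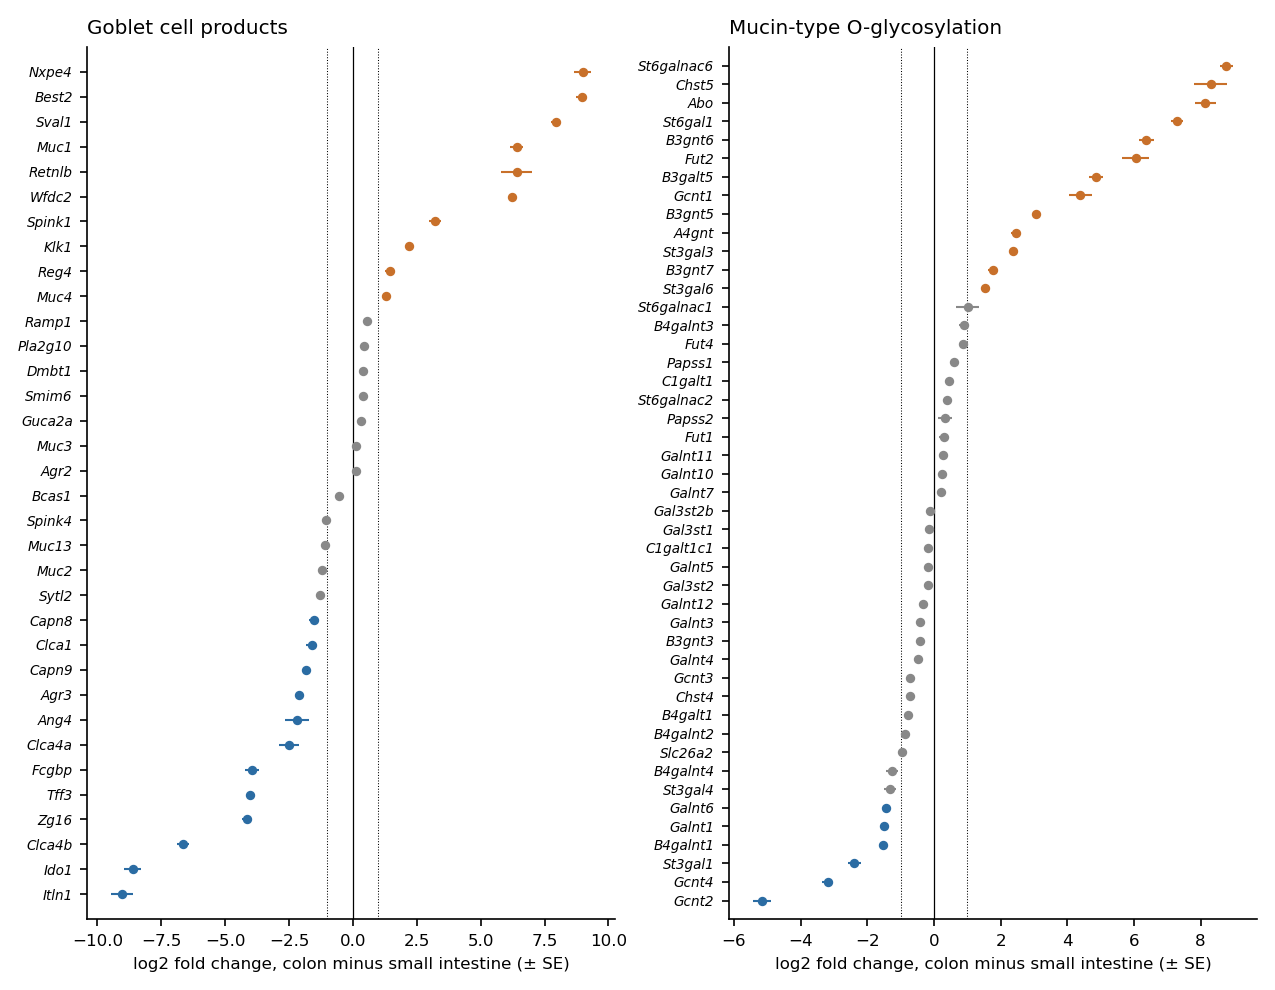
Log2 fold change of colon over SI (x axis, bars for SE) of the tested goblet cell products (left) and glycosylation enzymes (right) in WT libraries, coloured where the test beyond 2-fold was passed and grey otherwise, with dotted lines at 2-fold. Best2 and St6galnac6 lie far to the right and Itln1 and Gcnt2 far to the left, while Agr2 and Galnt10 lie near 0.

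Alpha-defensins, the antimicrobial peptides of Paneth cells, were higher in SI without exception. All 22 were higher in SI beyond 2-fold, against 8.94% of all genes, with a median log2 fold change of -10.08. They took 4.49%, 6.22% and 8.52% of the counts of the lowest, median and highest SI library and 0.00587%, 0.00739% and 0.0186% in the colon. Defa24, the most counted, had 15759, 24866 and 32484 CPM in the SI against 12.1, 17.2 and 37.1 CPM in the colon, and Defa30 had 8157, 12925 and 17988 CPM in the SI against 5.52, 8.18 and 18.5 CPM in the colon. In both, the highest colon library was the one numbered 7. Reads of 50 bases from this gene family may be assigned to a near-identical copy, so values of single members are uncertain while their sum is less so. For the 20 members with at least 20 CPM in the SI, the colon level was 0.0737% to 0.172% of the SI level, below the 1.23% seen for Uty in females, and the true fold of each cannot be told from these counts.

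Other Paneth cell products were higher in SI with exceptions. Of 27 tested 16 passed beyond 2-fold in SI and 5 in colon, against 8.94% and 7.65% of all genes. Lyz1, the lysozyme of Paneth cells (ENSMUSG00000069515, chromosome 10, 117287796 to 117292868), had 21464, 26466 and 33799 CPM in the SI against 18.7, 24.4 and 45.9 CPM in the colon, a log2 fold change of -9.93 ± 0.31, and shares reads with Lyz2. Habp2, a protease, had 118 ± 20.4 CPM in the SI and 0.121 ± 0.041 CPM in the colon, and its lowest SI library was the one numbered 4 with 78.4 CPM. The pentraxin gene Mptx1 was a product higher in colon, with 9249.7, 13804 and 21329 CPM in the colon against 84.4, 100.4 and 112 CPM in the SI, a 147-fold difference. Per kb of exon its colon level was 18219.5 CPM, against 9563 CPM for Zg16. Its close paralog Mptx2 had 1167 ± 283 CPM in the SI and 471 ± 159 CPM in the colon, so the 2 genes went in opposite directions (log2 7.20 ± 0.22 and -1.31 ± 0.21), although reads can be assigned to either. Egf, a growth factor that Paneth cells supply to stem cells, had 7.7 ± 1.44 CPM in the SI and 34.1 ± 4.62 CPM in the colon and was 4.43-fold higher in colon. Of 6 markers of the deep crypt secretory cells of the colon, 3 were higher in colon beyond 2-fold, against 7.65% of all genes. The Delta-like ligands Dll1 and Dll4 described above, 2 of the 6, were higher in SI (0 with plain library totals), against 8.94%. Reg4 had 1051, 1275 and 1626 CPM in the colon against 330.0, 471 and 724 CPM in the SI (log2 1.43 ± 0.19), Kit had 85.5 ± 10.3 CPM in the SI and 271 ± 31.1 CPM in the colon (log2 1.67 ± 0.10), and Cd24a had 645 ± 46.4 CPM in the SI and 724 ± 54.9 CPM in the colon with overlapping libraries (adjusted p = 0.0902), and passed when any of the SI libraries numbered 2, 6 or 7 or the colon library numbered 7 was left out (log2 0.19 to 0.23).

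Genes of microbial defence and sensing were more often higher in colon, with 20 of 44 beyond 2-fold there and 8 in SI, against 7.65% and 8.94% of all genes. Tlr4, the receptor for bacterial lipopolysaccharide, had 8.94, 11.3 and 13.8 CPM in the colon against 0, 0.0519 and 0.0699 CPM in the SI, a 251-fold difference. Gsdmc3, a pore-forming gasdermin, had 1.66 ± 0.65 CPM in the SI and 67.0 ± 17.7 CPM in the colon, and Nlrp10, a sensor of cell damage, had 0.122 ± 0.0971 CPM in the SI and 4.83 ± 1.11 CPM in the colon. Pigr, which carries IgA across the epithelium, had 2575 ± 151 CPM in the SI and 4315 ± 347 CPM in the colon, called at a log2 fold change of 0.74 ± 0.10 but not beyond 2-fold. Higher in SI were the C-type lectins Reg3a and Reg1. Reg3a had 18.2 ± 11.8 CPM in the SI and 0.103 ± 0.0613 CPM in the colon, and Reg1 had 25.1, 102 and 156 CPM in the SI against 0.398, 0.476 and 0.567 CPM in the colon, with a 204-fold difference. Lbp, which presents lipopolysaccharide, had 18.3 ± 7.16 CPM in the SI and 0.452 ± 0.207 CPM in the colon. Reg3 genes are close paralogs, and the split of their reads is uncertain.

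Enteroendocrine genes were mostly higher in SI. The study saw no reporter in cells stained for chromogranin A the day after tamoxifen, but did see it there later. Which cells of the sort held these transcripts was not tested. Of 22 transcription factors 15 passed beyond 2-fold in SI and 2 in colon, and of 22 hormone and granule genes 13 did in SI and 2 in colon, against 8.94% and 7.65% of all genes. The factors higher in colon include Foxa1, and their count was 1 without the colon library numbered 2, 4 or 6 and 0 with DESeq2 or limma. The 26 enteroendocrine markers tested summed to 366 to 758 CPM in the SI and 104 to 188 CPM in the colon. Sct, which encodes secretin of S cells, had 77.2, 100.5 and 112 CPM in the SI against 3.86, 4.82 and 10.3 CPM in the colon. Cck, a hormone of I cells, had 11.2 ± 2.29 CPM in the SI and 0.422 ± 0.25 CPM in the colon, and Ghrl, which encodes ghrelin, had 12.4 ± 4.36 CPM in the SI and 0.26 ± 0.142 CPM in the colon. Gip, the incretin of K cells, had 1 read in the 6 colon libraries together and 7.91 ± 2.15 CPM in the SI. Pdx1, a factor of the duodenum and pancreas, had 12.1 ± 3 CPM in the SI and 0.372 ± 0.148 CPM in the colon, and Rfx6, a factor of endocrine cells, had 6.08 ± 2.61 CPM in the SI and 1.027 ± 0.488 CPM in the colon. Peptide YY was the reverse. Pyy, of L cells, had 3.27, 6.17 and 9.72 CPM in the colon against 0.35, 0.793 and 1.29 CPM in the SI, a 7.5-fold difference without overlap. Chga, a general granule protein, had 46.5 ± 16.3 CPM in the SI and 21.9 ± 5.26 CPM in the colon, and its log2 fold change of -1.08 ± 0.22 was called (adjusted p = 0.000459) with overlapping libraries, but not with plain library totals (log2 -0.38).

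Tuft cell genes were measured at low levels in both tissues, and none was called higher in colon. The study saw no reporter in tuft cells stained for Dclk1 the day after tamoxifen. Which cells of the sort held these transcripts was not tested. Of 14 tested 6 passed beyond 2-fold in SI (3 with plain library totals), against 8.94% of all genes. Dclk1, the kinase that marks tuft cells, had 14.7, 24.2 and 28.6 CPM in the SI against 4.04, 6.14 and 11.9 CPM in the colon, with the highest colon value in the library numbered 7. Avil, a villin-related actin binder, had 23.8 ± 6.82 CPM in the SI and 4.54 ± 1.48 CPM in the colon, and Alox5ap, needed for leukotriene synthesis, had 5.65 ± 1.66 CPM in the SI and 0.715 ± 0.229 CPM in the colon. The values of Sh2d6 were uneven, with 6, 6.63 and 29.6 CPM in the SI against 1.97, 3.05 and 10.6 CPM in the colon. The libraries numbered 7 were highest in both tissues. The log2 fold change of Sh2d6, -1.37 ± 0.48, was -0.73 and not called without the SI library numbered 7. The call was also lost with plain library totals and with all 24 libraries together. With the replicate block Sh2d6 passed beyond 2-fold.

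Genes of fat uptake and lipoprotein assembly separated the tissues by large folds. Of 32 tested 20 were higher in SI and 4 in colon beyond 2-fold, against 8.94% and 7.65% of all genes. Apoa4, an apolipoprotein of chylomicrons (ENSMUSG00000032080, chromosome 9, 46240696 to 46243459), had 605, 884 and 1388 CPM in the SI against 0.901, 1.05 and 1.62 CPM in the colon, a log2 fold change of -9.67 ± 0.26. Apoa1 had 784 ± 295 CPM in the SI and 0.958 ± 0.267 CPM in the colon and Apoc3 had 42.0 ± 12.0 CPM in the SI and 0.0692 ± 0.045 CPM in the colon. Npc1l1, the cholesterol transporter that ezetimibe inhibits, had 154, 217 and 243 CPM in the SI against 0.249, 0.296 and 0.509 CPM in the colon. In colon these genes stood at 0.123%, 0.122%, 0.165% and 0.168% of their SI levels, within the range of the sex-linked genes. Scarb1, a receptor for high-density lipoprotein, was 9.52-fold higher in colon, with 3.79 ± 0.732 CPM in the SI and 36.2 ± 5.5 CPM in the colon. Acsl3, which activates fatty acids, had 32.7 ± 3.83 CPM in the SI and 104 ± 7.08 CPM in the colon, with the lowest colon value in the library numbered 7. These genes are those of absorptive enterocytes. Of 15 enterocyte markers 14 were higher in SI beyond 2-fold, against 8.94% of all genes. That list shares genes with this one, among them Apoa4, Apoa1 and Apoc3, and Lct with the brush border list below. It is therefore not a separate observation. The part of enterocytes in these differences was not tested.

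Digestive enzymes of the brush border followed the same direction. Of 27 tested 19 were higher in SI beyond 2-fold and 1 in colon, against 8.94% and 7.65% of all genes. Lct, which encodes lactase, had 67.6, 121 and 373 CPM in the SI against 0.131, 0.316 and 0.416 CPM in the colon, a spread of several fold within the SI and no overlap with colon. Treh, which encodes trehalase, had 32.3 ± 14.3 CPM in the SI and 0.125 ± 0.0408 CPM in the colon. The enzyme higher in colon was Mep1a, a metalloprotease subunit, with 8.66 ± 4.13 CPM in the SI and 41.0 ± 6.85 CPM in the colon. Muc13, a membrane mucin of the brush border, had 3646 ± 419 CPM in the SI and 1699 ± 166 CPM in the colon, called but not beyond 2-fold. Krt20, a keratin of mature cells, had 1301 ± 254 CPM in the SI and 61.0 ± 8.4 CPM in the colon and was 21.3-fold higher in SI.

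Among 42 transporters of nutrients, iron and bile acids, 18 were higher in SI and 4 in colon beyond 2-fold, against 8.94% and 7.65% of all genes. Slc2a2, the basolateral glucose transporter, had 8.55, 18.6 and 63.0 CPM in the SI against 0.0605, 0.094 and 0.174 CPM in the colon. Slc6a19, a transporter of neutral amino acids, had 28.2 ± 13.3 CPM in the SI and 0.347 ± 0.183 CPM in the colon, and Cybrd1, the iron reductase of the duodenum, had 13.4 ± 2.57 CPM in the SI and 0.165 ± 0.0835 CPM in the colon. Slc5a1, the apical sodium and glucose transporter, had 222 ± 133 CPM in the SI and 95.6 ± 14.7 CPM in the colon, and its libraries overlapped. The log2 fold change of Slc5a1 of -1.22 ± 0.32 was called, and not with plain library totals. Slc5a8, which takes up short-chain fatty acids, had 102, 124 and 163 CPM in the colon against 1.05, 2.01 and 2.82 CPM in the SI, a 70.4-fold difference. Slc40a1, the iron exporter ferroportin, was 5.46-fold higher in colon.

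Ion and water transport genes were more often higher in colon, with 16 of 49 beyond 2-fold there and 7 in SI, against 7.65% and 8.94% of all genes. Scnn1b, a subunit of the epithelial sodium channel, had 18.3, 23.9 and 38.9 CPM in the colon against 0.0233, 0.0664 and 0.0743 CPM in the SI. Scnn1g, another subunit, had 2 reads over the 6 SI libraries and 4.67 ± 3.11 CPM in colon. Car1, a carbonic anhydrase of colonocytes, had 0.735 ± 0.198 CPM in the SI and 302 ± 130.0 CPM in the colon, and Aqp8, a water channel, had 0.406 ± 0.409 CPM in the SI and 12.9 ± 2.7 CPM in the colon. Higher in SI were Slc26a6, an anion exchanger, with 50.5 ± 23.4 CPM in the SI and 2.75 ± 0.419 CPM in the colon, Guca2b, which encodes uroguanylin, with 182 ± 36.1 CPM in the SI and 38.5 ± 6.49 CPM in the colon, and Slc9a3, the sodium and hydrogen exchanger, with 11.4 ± 4.29 CPM in the SI and 3.84 ± 0.93 CPM in the colon. Slc26a3, the chloride exchanger of surface colonocytes, had 26.5 ± 10.4 CPM in the SI and 27.0 ± 2.52 CPM in the colon (adjusted p = 0.929). With plain library totals Slc26a3 was called higher in colon (log2 0.75). Markers of colonocytes went both ways. Of 12, 6 were higher in colon and 2 in SI beyond 2-fold, against 7.65% and 8.94% of all genes. Their summed level was 2162 to 3449 CPM in colon and 6235 to 8256 CPM in SI.

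**Figure D4:**
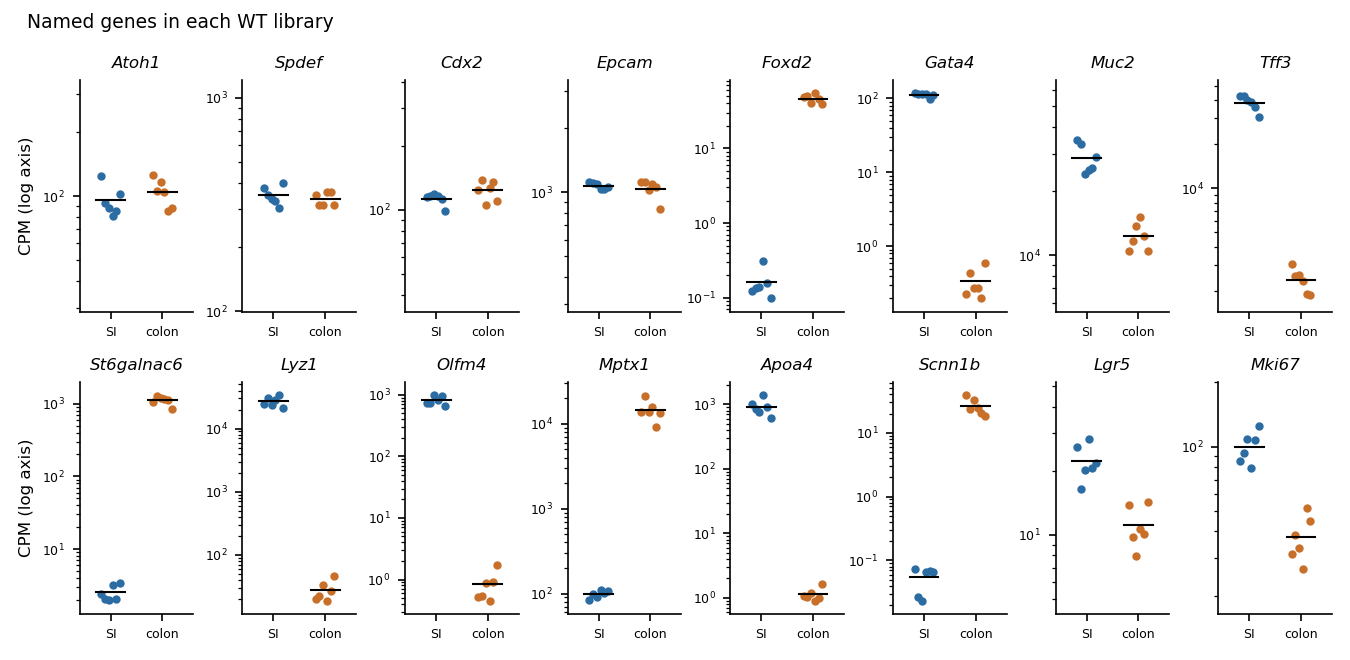
Level (CPM, log axis) of named genes in each of the 6 WT SI and 6 WT colon libraries, with 1 point per library and a bar at the mean. The SI and colon points of Atoh1, Spdef, Cdx2 and Epcam overlap, while those of Foxd2, Gata4, Lyz1 and Olfm4 lie far apart.

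Crypt stem cell genes were found on both sides. Of 20, 3 were higher in SI and 1 in colon beyond 2-fold, against 8.94% and 7.65% of all genes. The colon count was 5 with plain library totals and 0 with DESeq2 or limma, and the median of -0.35 became 0.37 with plain library totals. Olfm4, a marker of SI stem cells, had 649.9, 779 and 988 CPM in the SI against 0.451, 0.707 and 1.72 CPM in the colon, a log2 fold change of -9.92 ± 0.32. Smoc2 had 96.8 ± 12.4 CPM in the SI and 32.5 ± 4.09 CPM in the colon and Msi1, an RNA-binding protein, had 15.8 ± 2.33 CPM in the SI and 2.34 ± 0.834 CPM in the colon. Lgr5, the receptor that marks active stem cells in both tissues, had 22.1 ± 4.21 CPM in the SI and 11.1 ± 2.48 CPM in the colon, called at a log2 fold change of -1.0 ± 0.15 and not with plain library totals (log2 -0.28). Cd44 was higher in colon, with 20.3 ± 4.27 CPM in the SI and 52.9 ± 11.5 CPM in the colon, and did not pass beyond 2-fold without the colon library numbered 6. Slc12a2, the chloride uptake transporter of crypts, had 339.6 ± 32.02 CPM in the SI and 733 ± 91.2 CPM in the colon.

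Most cell cycle genes were called higher in SI. Of 34 DNA replication genes 29 were called in SI, as were 33 of 34 genes of G2 and mitosis, against 30.4% of all genes. The median log2 values were -0.83 and -1.12, or -0.12 and -0.41 with plain library totals. Beyond 2-fold 6 replication genes passed (3 without the SI library numbered 4 or with DESeq2) and 4 of G2 and mitosis, against 8.94% of all genes. The G2 and mitosis count was 2 without the SI library numbered 6, 11 without the colon library numbered 6, 8 with the replicate block and 2 without both libraries numbered 7. No gene of either list passed beyond 2-fold in SI with plain library totals. Mki67, a protein of cycling cells, had 79.4, 100.3 and 124 CPM in the SI against 26.7, 36.0 and 51.2 CPM in the colon, and the libraries did not overlap. Top2a had 103 ± 15.4 CPM in the SI and 36.7 ± 8.94 CPM in the colon, and Cdc6, which licenses origins, had 9.65 ± 1.45 CPM in the SI and 2.88 ± 0.677 CPM in the colon. Pcna had 59.0 ± 6.84 CPM in the SI and 40.8 ± 4.97 CPM in the colon, and its log2 fold change of -0.54 ± 0.09 turned to 0.17 with plain library totals.

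Of 48 genes of ER folding 33 were called higher in SI, against 30.4% of all genes, while 4 passed beyond 2-fold there (2 with plain library totals) and 1 in colon, against 8.94% and 7.65%, and the median of -0.42 became 0.28 with plain library totals. Pdia5, a disulfide isomerase, was the gene higher in colon, with 95.8 ± 23.0 CPM in the SI and 261 ± 31.0 CPM in the colon. Ero1lb, an oxidase of secretory cells, had 33.2 ± 3.21 CPM in the SI and 8.6 ± 1.05 CPM in the colon, and its highest colon library was number 6. Derl3, of ER-associated degradation, had 3.76 ± 2.18 CPM in the SI and 0.564 ± 0.15 CPM in the colon, with 8.01 CPM in the SI library numbered 7. P4hb had 1945 ± 117 CPM in the SI and 1297 ± 155 CPM in the colon, and its log2 value of -0.59 ± 0.10 turned to 0.12 with plain library totals.

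Transcripts of cytosolic ribosomal proteins were called higher in colon for 78 of 80 genes, against 33.1% of all genes, and none passed beyond 2-fold, against 7.65%. With plain library totals 77 passed. Their share of counts was 1.21%, 1.58% and 2.01% in the lowest, median and highest SI library and 4.24%, 4.56% and 4.95% in the colon. Rplp0, a protein of the ribosomal stalk, had 867 ± 137 CPM in the SI and 1547 ± 133 CPM in the colon. Of 83 genes of oxidative phosphorylation 68 were called higher in colon, against 33.1% of all genes, with 1 beyond 2-fold, against 7.65%. That count was 2 with the replicate block and without the SI library numbered 2, 4, 5, 6 or 7 or the colon library numbered 7, and 42 with plain library totals. Atp5b, a subunit of ATP synthase, had 1148 ± 165 CPM in the SI and 1535 ± 224 CPM in the colon with overlapping libraries (log2 0.42 ± 0.13, adjusted p = 0.00888). The genes of cholesterol synthesis showed 0 of 26 beyond 2-fold in either direction, against 7.65% of all genes in colon and 8.94% in SI. At an adjusted p under 0.05 (edgeR quasi-likelihood test) 3 were called higher in colon and 5 in SI. The shares of all genes called were 33.1% and 30.4%. Srebf2, the master regulator of cholesterol synthesis, had 226 ± 17.7 CPM in the SI and 228 ± 38.9 CPM in the colon. It was called higher in colon with plain library totals (log2 0.73).

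Signals that crypt cells exchange were divided by gene. Among 30 Wnt pathway genes 6 were higher in SI and 5 in colon beyond 2-fold, against 8.94% and 7.65% of all genes. Wnt3, the ligand that Paneth cells make, had 23.9, 28.1 and 34.0 CPM in the SI against 0.116, 0.213 and 0.431 CPM in the colon, a 117-fold difference. Sfrp5, a secreted inhibitor, had 14.4 ± 3.51 CPM in the SI and 0.394 ± 0.111 CPM in the colon. Fzd1, a receptor, had 2.69 ± 0.609 CPM in the SI and 12.5 ± 2.12 CPM in the colon, with the lowest SI value in the library numbered 7. Among 12 genes of the EGF family 2 were higher in SI (0 with plain library totals) and 1 in colon beyond 2-fold. The shares of all genes were 8.94% and 7.65%. Areg, a ligand of the EGF receptor, had 33.2 ± 9.32 CPM in the SI and 11.7 ± 1.63 CPM in the colon, and Btc, another ligand, had 26.9 ± 7.38 CPM in the SI and 6.89 ± 1.3 CPM in the colon. Erbb2 had 145 ± 11.1 CPM in the SI and 117 ± 10.3 CPM in the colon, and its log2 value of -0.31 ± 0.08 turned to 0.40 with plain library totals.

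Tight junction genes differed by gene, with 3 of 21 beyond 2-fold in each direction, against 7.65% and 8.94% of all genes. Cldn8, a sealing claudin, had 29.8, 40.2 and 50.4 CPM in the colon against 0.43, 0.632 and 0.979 CPM in the SI, a 60.1-fold difference. Cldn2, which forms a cation pore, had 92.3 ± 9.73 CPM in the SI and 353 ± 36.7 CPM in the colon. Cldn4 was the reverse, with 591 ± 126 CPM in the SI and 103 ± 38.8 CPM in the colon. Among 70 genes of xenobiotic metabolism, 15 were higher in colon beyond 2-fold (25 with plain library totals) and 19 in SI. The shares of all genes were 7.65% and 8.94%. Sult1a1, a sulfotransferase, had 0.61 ± 0.295 CPM in the SI and 142 ± 16.2 CPM in the colon, and Cyp2c55, a cytochrome of the colon, had 3.18 ± 1.63 CPM in the SI and 143 ± 27.3 CPM in the colon. Cyp3a11, the main drug-metabolising cytochrome of mouse SI, had 9.99, 35.3 and 43.3 CPM in the SI against 0.083, 0.191 and 0.491 CPM in the colon, and Abcc2, which exports conjugates, had 40.3 ± 15.5 CPM in the SI and 0.243 ± 0.091 CPM in the colon. Cytochromes of 1 subfamily are close in sequence, and the split of their reads is uncertain.

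Genes of antigen presentation and the interferon response were mostly higher in SI, with large spread. Of 37 interferon genes 20 were higher in SI (13 with plain library totals) and 1 in colon (2 without the SI library numbered 7), against 8.94% and 7.65% of all genes. Oas3, an antiviral sensor, had 44.8, 57.1 and 99.3 CPM in the SI against 0.996, 1.67 and 2.21 CPM in the colon, and Oasl1 had 264 ± 61.1 CPM in the SI and 12.5 ± 1.88 CPM in the colon. Isg20, an exonuclease, was the exception, with 4.11 ± 0.893 CPM in the SI and 24.02 ± 3.99 CPM in the colon. Of 8 MHC class II genes 6 were higher in SI beyond 2-fold (2 with limma), against 8.94% of all genes. In the 9S/T-A libraries 4 MHC class II genes passed in colon and 0 in SI. The SI library numbered 7 stood apart in Cd74 and H2-Aa. Cd74, the invariant chain, had 13.5, 34.7 and 205 CPM in the SI against 1.71, 5.45 and 8.8 CPM in the colon, and its log2 fold change of -3.50 ± 0.64 was -2.64 without that library. H2-Aa had 1.44, 2.49 and 36.4 CPM in the SI against 0.232, 1.09 and 1.99 CPM in the colon, with overlapping libraries, and its log2 fold change of -3.04 ± 0.78 was -1.69 without that library. Leukocyte transcripts moved in the same direction. Gzma, a protease of intraepithelial lymphocytes, had 37.7 ± 10.6 CPM in the SI and 0.119 ± 0.0685 CPM in the colon, Cd8a, of T cells, had 7.5 ± 2.34 CPM in the SI and 0.103 ± 0.0482 CPM in the colon, and Itgam, of myeloid cells, had 4.56 ± 0.5 CPM in the SI and 5.4 ± 0.905 CPM in the colon with overlapping libraries (log2 0.24 ± 0.13, and called at 0.31 without the SI library numbered 3 or the colon library numbered 6). Of 15 leukocyte markers tested 12 were higher in SI beyond 2-fold, against 8.94% of all genes. Their part in these differences was not tested. Stress genes that dissociation can induce gave 1 of 22 in each direction beyond 2-fold, against 7.65% and 8.94% of all genes. Nr4a1 had 56.0 ± 24.4 CPM in the SI and 183 ± 50.03 CPM in the colon, Socs3 had 62.3 ± 29.0 CPM in the SI and 10.5 ± 1.16 CPM in the colon, with 119.6 CPM in the SI library numbered 7, and Fos had 996 ± 179.7 CPM in the SI and 831 ± 110.2 CPM in the colon (adjusted p = 0.0898, and a call at -0.31 without the SI library numbered 6).

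The tissue contrast was repeated in the 12 libraries of 9S/T-A mice, which the WT fit did not use. There 1349 of 16938 genes (7.96%) were higher in colon and 1449 (8.55%) higher in SI beyond 2-fold. Of the 1299 genes higher in WT colon, 1132 (87.1%) passed in the same direction, and of the 1518 higher in WT SI, 1222 (80.5%) did. None of the colon genes was estimated in the opposite direction, against 8 of the SI genes, 4 of them called. Hoxb13 had a log2 fold change of 9.00 ± 0.24 in 9S/T-A, Gata4 -7.86 ± 0.20 and Apoa4 -10.57 ± 0.25.

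Whether the tissue contrast depended on the Atoh1 allele was tested directly with the product of tissue and genotype over all 24 libraries. It was called for 74 of 17953 genes (0.412%), of which 17 were among the genes higher in WT colon and 24 among those higher in WT SI beyond 2-fold. With the replicate block (genotype and number together) 342 genes were called, with DESeq2 258, and without 9S/T-A SI replicate 2 there were 112. The leading genes differed in the SI level. Mptx2 had 1167 ± 283 CPM in the SI and 471 ± 159 CPM in the colon in WT and 44.8 ± 24.9 CPM in the SI and 603 ± 127 CPM in the colon in 9S/T-A, so its log2 fold change was -1.31 ± 0.21 in WT and 3.75 ± 0.31 in 9S/T-A (difference -5.06 ± 0.40, adjusted p = 3.38e-08). Ceacam10, of the carcinoembryonic antigen family, had 0.47 ± 0.184 CPM in the SI and 71.2 ± 13.9 CPM in the colon in 9S/T-A against 8.45 ± 5.91 CPM in the SI and 77.5 ± 5.67 CPM in the colon in WT (difference -4.00 ± 0.45, adjusted p = 1.62e-05), and its highest WT SI value was in the library numbered 7. For Sval1 the WT contrast was the larger one, with 16.3 ± 4.64 CPM in the SI and 929 ± 144 CPM in the colon in 9S/T-A (difference 2.11 ± 0.23, adjusted p = 1.62e-05). Mfhas1 and Cacna2d2 were higher in colon in both genotypes, with differences of -1.80 ± 0.26 and 1.28 ± 0.18. The noncoding Gm27162 was higher in SI in both, with a difference of -3.02 ± 0.43. Of the 8 MHC class II genes 7 were called. Cd74 had 12.8 ± 12.9 CPM in the SI and 125 ± 162 CPM in the colon in 9S/T-A, the reverse of the WT direction (difference -6.80 ± 1.18, adjusted p = 0.00653).

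**Figure D5:**
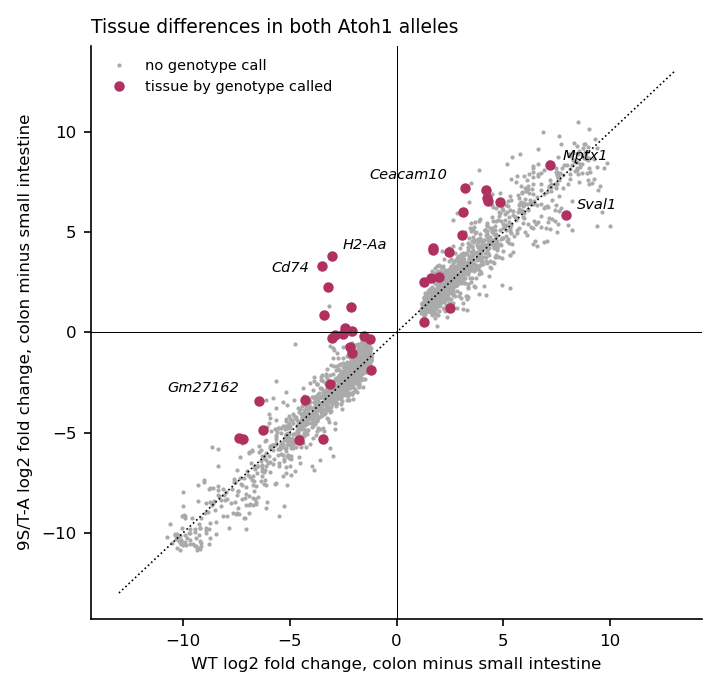
Log2 fold change of colon over SI in WT libraries (x axis) and in 9S/T-A libraries (y axis) for the genes beyond 2-fold in WT, 1 point per gene, with a line of equal values and the genes called for the product of tissue and genotype marked. Most points lie along the line, and Cd74 and H2-Aa lie below 0 on the x axis and above 0 on the y axis. None of the genes higher in WT colon lies below 0 on the y axis.

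Sex made no called difference to the tissue contrast. The product of tissue and sex within WT was called for 0 of 16979 genes (0%) by edgeR, also with the replicate block, and for 0 by DESeq2, while 442 genes had an unadjusted p under 0.05. Among genes beyond 2-fold, Ikzf3, a lymphoid factor, had a difference of 3.33 ± 0.57 between males and females on the log2 scale (adjusted p = 0.904), with means of 1.77 CPM in the SI and 0.0737 CPM in the colon. Xkr4 (4 reads over the 6 SI libraries) and Gm7357 were the other genes that the rule named for sex. Their differences were -0.11 ± 1.55 and 0.11 ± 0.37 (edgeR quasi-likelihood test, adjusted p = 0.9999 for both). Other genes shared that adjusted p, so Xkr4 and Gm7357 were arbitrary picks from a tie.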

How the data were processed

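Messenger RNA of sorted EpCAM+ tdTom+ cells was sequenced in 24 libraries. The values used are raw counts per Ensembl gene that the authors deposited, 1 table per library with 45513 genes. Per the labels and methods, the authors aligned stranded single-end reads of 50 bases to GRCm38.p3 with TopHat2 2.1.1 and counted primary alignments over exons by strand with featureCounts (Subread 1.5.2), and their processing notes also list DESeq2 1.14.1. A read with several possible positions was therefore counted at 1 of them, so members of near-identical families are uncertain. GENCODE M21 named 44671 genes (98.15%).

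The 12 WT libraries were fitted in R 4.3.3 by the quasi-likelihood test of edgeR 4.0.16 (low counts removed with filterByExpr, TMM scaling, two-sided, adjusted over 16979 genes by Benjamini-Hochberg, threshold 0.05), and differences beyond 2-fold were tested with glmTreat. The biological coefficient of variation was 18.4%, with 10 residual degrees of freedom. CPM are counts per 1000000 of the TMM-scaled library size. The same tests were run in 9S/T-A libraries, and products of tissue with genotype and with sex were tested as terms. The scripts were tested on simulated data. Python 3.11.15, pandas 2.3.3, numpy 2.4.6 and matplotlib 3.10.9 were used for tables and plots. Of 60 pairs of libraries of the same group, 0 were identical. Total counts per library set the precision, and such totals cover counting error alone.

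The gene programmes (30 lists) and cell type markers (16 lists) were written with earlier results of these data known, so their counts are descriptions beside the share over all genes tested. Named genes were the 10 protein-coding genes with the largest change per direction at 20 CPM or more and no overlap, up to 4 members per list and direction at 2 CPM or more and the 2 most counted members not beyond 2-fold, a set named whatever its result (such as Atoh1, Muc2 and Lgr5), and, among genes beyond 2-fold, the 5 and 3 with the smallest adjusted p for genotype and sex. The text gives most of these, and some are not reported here. Hoxd9, Hoxd10, Hoxd12, Ddx3y, Eif2s3y, Uty, Xist, Lyz2 and the markers at 0 were named after their values were seen.

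The titles number the libraries of each group 2 to 7, and the labels do not say that a number marks a mouse. Across genes, same-numbered SI and colon libraries deviated from their group means together in all 6 pairs (correlations 0.184 to 0.59, median of other pairs -0.07), so the number was used as a replicate block in an alternative fit. The p-values measure the spread between these libraries, whose origin in separate mice the labels leave unstated. Other alternatives were DESeq2 1.42.0, limma 3.58.1 (voom), RLE factors, plain totals, other filters and thresholds, sex as a covariate, all 24 libraries together and each library left out. Without both libraries numbered 7 was added after the data were seen. Promoter sequences came from RefSeq (GRCm38.p6).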

Additional observations from a re-analysis of the deposited data

Results flagged for a closer look

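Single libraries stood apart from the other 5 of their group by Dixon's test in 29 of 306 groups of 6 libraries (9.48%), where chance alone gives about 1 in 20. Of these, 11 were the SI library numbered 7 and 8 the colon library of that number, and 23 were the highest of their group.

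In the SI library numbered 7, the high values were Cd74 at 205 CPM (others up to 78.9), H2-Aa at 36.4 CPM (up to 9.83), Sh2d6 at 29.6 CPM, Socs3 at 119.6 CPM, Ceacam10 at 19.6 CPM, Derl3 at 8.01 CPM, Retnlb at 5.13 CPM, and Hoxb8 and Nxpe4 at 0.0993 CPM each. Its low values were Cdx2 at 98.7 CPM and Fzd1 at 1.49 CPM. In the colon library numbered 7 the high values were Defa24 at 37.1 CPM, Defa30 at 18.5 CPM, Dclk1 at 11.9 CPM, Sh2d6 at 10.6 CPM, Ido1 at 3.98 CPM and Olfm4 at 1.72 CPM, and the low ones were Epcam at 832 CPM and Acsl3 at 90.8 CPM.

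In the other SI libraries, Best2 was high in number 2 (0.793 CPM), Foxd2 in number 5 (0.311 CPM) and Scnn1g in number 4 (0.0466 CPM, with 0 in the others), while Habp2 was low in number 4 (78.4 CPM) and Gata4 in number 6 (98.2 CPM). In the other colon libraries, Reg3a was high in number 3 (0.223 CPM), as was Gip (0.0318 CPM from 1 read), Dlk1 in number 4 (5.78 CPM), and St3gal1 (13.4 CPM) and Ero1lb (10.6 CPM) in number 6.

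For 9 named genes the tissue difference differed between the Atoh1 alleles by the test of the product of tissue and genotype. The WT minus 9S/T-A differences of the log2 fold change were -6.86 for H2-Aa, -6.80 for Cd74, -5.06 for Mptx2, -4.00 for Ceacam10, -3.02 for Gm27162, -1.80 for Mfhas1, -1.16 for Mptx1, 1.28 for Cacna2d2 and 2.11 for Sval1.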

How the results depend on the processing

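With plain library totals 5008 genes passed beyond 2-fold in WT in place of 2817, and 2345 of the called genes had the opposite sign, none of them beyond 2-fold. Of the named genes, Epcam (0.66), Spdef (0.66), Fos (0.46), Erbb2 (0.40), Xbp1 (0.32), Pcna (0.17), P4hb (0.12) and Gcnt3 (0.0015) turned from a negative to these positive log2 values. Besides those that turned, genes not called in the main fit were called higher in colon with plain totals. These were Itgam (0.95), Cd24a (0.88), Cdx2 (0.84), Atoh1 (0.84), Agr2 (0.82), Hes1 (0.78), Slc26a3 (0.75) and Srebf2 (0.73), with log2 values in brackets. The total of called genes ran from 10446 to 11316 when each library was left out, and that beyond 2-fold from 2788 to 2932. With a test against 4-fold it was 1406. With the replicate block, 2984 genes passed beyond 2-fold, and 2875 did without both libraries numbered 7. The product of tissue and genotype gave 74 genes, 342 with the replicate block, 258 with DESeq2 and 50 to 112 when each library was left out, the highest without 9S/T-A SI replicate 2. The cause of these differences was not tested. As shares of length-scaled counts, goblet products had medians of 33.5% in SI and 9.65% in colon, alpha-defensins 21.5% and 0.0361%, and ribosomal proteins 6.96% in colon. The share of alpha-defensins without alpha-defensins has no value. Of 153 genes in the text, 131 kept their direction and side of the threshold in every alternative and 146 outside plain totals. Of 92 counts of list members 79 moved by no more than 1.5 times outside plain totals. At this depth, differences of genes with only a few reads in both tissues were not detectable.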
